A study of Mus musculus with 24 samples.

Results

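Transcripts of 5 CC chemokine genes, Ccl2, Ccl3, Ccl4, Ccl5 and Ccl7, were followed in mouse macrophages with and without the receptor GPR35. The genes were taken by their symbols from a deposited table of read counts, in which each matched 1 row, so that they make up 5 of its 11590 genes. The cells were bone marrow-derived macrophages (BMDMs) from male C57BL/6 animals, either wild-type (WT) or GPR35-deficient (KO), and all cultures had been kept adherent with M-CSF for 7 days. From day 7 they received 10 µM lysophosphatidic acid (LPA, a lipid mediator) for 4 h, 10 ng/mL lipopolysaccharide (LPS, a component of bacterial outer membranes) for 4 h, or nothing (Cont). Each of the 6 groups, WT Cont, WT LPA, WT LPS, KO Cont, KO LPA and KO LPS, held 4 libraries, which gave 24 libraries of polyA RNA. How the Gpr35 gene had been disrupted, and whether the replicates came from separate mice, is not given in the labels, so the p-values measure the spread between these libraries, which may in part be technical.

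CC chemokines are small secreted proteins that carry a pair of adjacent cysteines near the start of the mature protein, and that attract leukocytes through G protein-coupled receptors. Ccl2 and Ccl7 encode ligands of CCR2, the receptor that brings monocytes out of the bone marrow and into inflamed tissue. Ccl3, Ccl4 and Ccl5 encode proteins that attract monocytes, T cells and NK cells, those of Ccl3 and Ccl5 in part through CCR1. In macrophages these genes are known targets of Toll-like receptor signalling through NF-kB and interferon regulatory factors, and LPS is a standard inducer of them. The comparisons here ask how much LPA changes their transcripts, whether that change depends on GPR35, and how it stands beside the response to LPS.

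The genes lie in 2 clusters on chromosome 11 (GRCm38.p6, the assembly that mm10 names). Ccl2 (chr11:82035577-82037452, plus strand) and Ccl7 (chr11:82045712-82047525, plus strand) are neighbours, 8.26 kb apart. Ccl5 (chr11:83525778-83530518, minus strand) and Ccl3 (chr11:83647843-83649378, minus strand) lie 1478 kb further on, with 117.3 kb between them. Ccl4 follows on the plus strand, 13.2 kb after Ccl3, with its GENCODE transcript at chr11:83662584-83664683. The RefSeq span of Ccl4 begins at 83648624, inside Ccl3 and on the opposite strand. The strand setting of the counting is not given in the sources used here, but the exon length behind the deposited Ccl4 row, 660 bases, equals that of the GENCODE transcript, which does not reach Ccl3. Each of the 5 genes has 1 coding transcript of 3 exons in GENCODE M21.

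The feature that defines the family is shown in the coding sequences below, 60 bases from each GENCODE transcript, with the codons of the adjacent cysteines in capitals.
Ccl2: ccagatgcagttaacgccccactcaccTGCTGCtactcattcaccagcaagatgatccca
Ccl7: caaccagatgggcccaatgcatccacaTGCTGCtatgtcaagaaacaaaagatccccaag
Ccl3: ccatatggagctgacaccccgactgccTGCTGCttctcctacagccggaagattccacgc
Ccl4: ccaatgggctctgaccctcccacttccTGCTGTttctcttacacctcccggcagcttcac
Ccl5: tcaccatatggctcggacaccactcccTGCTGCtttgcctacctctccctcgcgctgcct
The coding sequences of the 10 pairs of these genes were 41.3% to 68.4% identical, and the closest pair was Ccl3 and Ccl4. The longest run of bases that any pair of their transcripts shared was 23 bases, and none of the 51-base words of the 5 transcripts, the length of a read, occurred in a transcript of another gene.

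The libraries held 32.0 to 46.7 M gene counts in WT and 15.2 to 21.5 M in KO. WT libraries had been run on a pair of lanes and KO libraries on 1 lane of the same flow cell, so lane and depth go with genotype and cannot be told apart from it in comparisons of KO with WT. Levels are given as CPM, counts scaled to library size with TMM factors (trimmed mean of M values), and levels of different genes are compared only after division by gene length (CPM per kb). Changes were tested with edgeR over all 11590 genes and called at an adjusted p below 0.05, and log2 changes are written ± their standard error (4 libraries per group). Gpr35 itself was lower in KO than in WT in untreated cells, by a log2 difference of -4.20 ± 0.38 (edgeR adjusted p = 7.1e-06). All 7 listed macrophage markers were measured, with a summed level of 30522 to 45001 CPM over the 24 libraries, while 0 of 10 markers of T and NK cells and 0 of 6 markers of dendritic cells were in the table.

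In untreated macrophages Ccl3, Ccl4 and Ccl5 were moderately abundant and the CCR2 ligands scarce. Per length, Ccl5 stood highest in WT Cont, at 113.5 ± 16.5 CPM per kb (mean ± SD, n = 4), and ranked 487 of 11590 genes. Ccl3 followed at 54.4 ± 2.95 CPM per kb (rank 1157) and Ccl4 at 35.0 ± 2.47 CPM per kb (rank 1857). Ccl2 stood far lower, at 3.10 ± 0.849 CPM per kb (rank 8544), and Ccl7 lowest at 0.954 ± 0.229 CPM per kb (rank 10337). Ccl7 rested on only 26 to 52 counts per WT Cont library and 11 to 33 per KO Cont library, and Ccl2 on 83 to 180 and 30 to 133. The spread between replicates was wide for these transcripts, with an edgeR coefficient of biological variation of 38.8% for Ccl2 and 37.1% for Ccl7, against 14.7% for Ccl3, 15.3% for Ccl5, 19.8% for Ccl4 and a median of 7.90% over all genes.

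Without treatment, no difference between the genotypes was called. Ccl3 stood at 39.6, 43.1, 44.7 and 44.4 CPM in WT Cont and at 34.9, 46.2, 37.3 and 49.3 CPM in KO Cont. The ranges overlapped for all 5 genes, and the group means kept the same order per length in both genotypes. None of the 5 was called (edgeR adjusted p = 1.0 for each), none had an unadjusted p below 0.05 and DESeq2 called none either, where 0.00863% of all genes were called, a single gene, Gpr35. The 95% intervals of the log2 difference ran from -0.35 to 0.28 for Ccl3, -0.46 to 0.41 for Ccl4 and -0.61 to 0.05 for Ccl5. For Ccl2 (-0.90 to 1.10) and Ccl7 (-1.03 to 1.39) they were wider. KO Cont replicate 4 was the highest of its group for all 5 genes, with Ccl2 at 5.45 CPM against 1.78, 1.59 and 1.70 CPM in the other replicates. Without that library the log2 difference of Ccl2 turned from 0.10 to -0.57, and that of Ccl7 from 0.18 to -0.16, with none called.

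**Figure D1:**
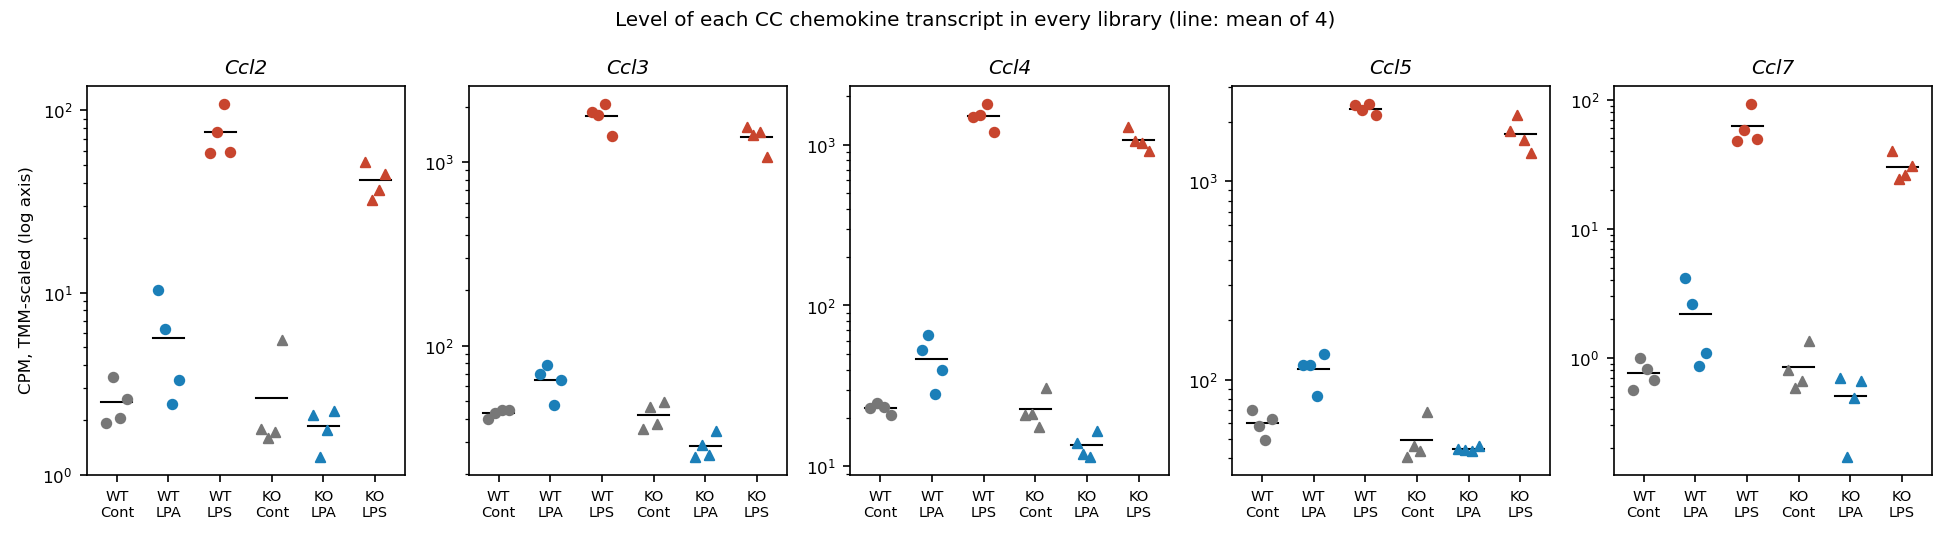
TMM-scaled CPM (log axis) of each chemokine transcript in the 24 libraries, by group, with circles for WT, triangles for KO and a line at the mean of 4. LPS libraries lie far above the rest in both genotypes, and WT LPA libraries lie above KO LPA libraries for all 5 genes without overlap.

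LPA raised all 5 transcripts in WT macrophages. Ccl5, whose protein acts on CCR1 and CCR3 among others, stood at 70.2, 58.2, 49.4 and 63.4 CPM in WT Cont and at 119, 119, 82.3 and 134 CPM in WT LPA. Every treated library lay above every untreated one, and the log2 change was 0.91 ± 0.16 (edgeR adjusted p = 0.00011), a 1.88-fold rise. Ccl4 went from 23.2, 24.8, 23.4 and 20.9 CPM to 52.8, 65.5, 28.2 and 39.6 CPM. Its groups did not overlap either, although WT LPA replicate 3 came close to the untreated range, and it rose by 1.01 ± 0.20 (edgeR adjusted p = 0.00055). Ccl3 rose least, by 0.60 ± 0.15 (edgeR adjusted p = 0.003), to 69.8, 78.1, 47.5 and 64.7 CPM, again without overlap.

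The CCR2 ligands had the largest log2 estimates of the 5, with wider standard errors and less even replicates. For Ccl2 this order did not hold without WT LPA replicate 1. Ccl7 was at 0.567, 0.990, 0.816 and 0.676 CPM in WT Cont and at 4.15, 2.62, 0.863 and 1.09 CPM in WT LPA. Replicates 1 and 2 stood well above the untreated range, while replicate 3 lay within it. The log2 change was 1.52 ± 0.43 (edgeR adjusted p = 0.0079). Ccl2 was at 1.92, 3.43, 2.05 and 2.61 CPM without treatment and at 10.3, 6.31, 2.45 and 3.31 CPM with LPA. Here replicates 3 and 4 lay within the untreated range, and the log2 change was 1.17 ± 0.40 (edgeR adjusted p = 0.023). Both calls rested on WT LPA replicate 1: without it the change of Ccl7 was 0.99 (edgeR adjusted p = 0.073) and that of Ccl2 0.68 (adjusted p = 0.18). The call of Ccl2 was also lost without WT LPA replicate 2, WT Cont replicate 1 or WT Cont replicate 3 (edgeR adjusted p = 0.059, 0.06 and 0.059). Over all alternatives run, the adjusted p ranged from 0.0056 to 0.18 for Ccl2 and from 0.0017 to 0.073 for Ccl7 (edgeR or DESeq2).

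With 5 of 5 genes called as higher, the chemokines stood beside 23.5% of all genes called as higher in the same comparison and 44.6% called in either direction. Their median log2 change was 1.01, against -0.01 over all genes. WT LPA libraries lay wholly above the untreated ones for 3 of the 5 chemokines, and for 2090 of 11590 genes. They lay wholly below for 1956 of 11590 genes. In bulk RNA a change in the number of expressing cells cannot be told apart from a change in RNA per cell.

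Libraries of the same number tracked each other within a genotype, and paired by number all 5 transcripts were higher with LPA in each of the 4 WT pairs. The pairs differed in size. In pair 1 the log2 ratios of the 5 genes ran from 0.76 to 2.87, and in pair 3 from 0.08 to 0.74. WT LPA replicate 3 was the lowest of its group for every one of the 5, and replicates 1 and 2 lay above the group's mean for all 5. In pair 3 Ccl5 kept a log2 ratio of 0.74 while Ccl3 (0.09), Ccl7 (0.08), Ccl2 (0.25) and Ccl4 (0.27) had less. Ccl5 was also the steadiest of the 5 over the WT pairs, between 0.74 and 1.08.

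**Figure D2:**
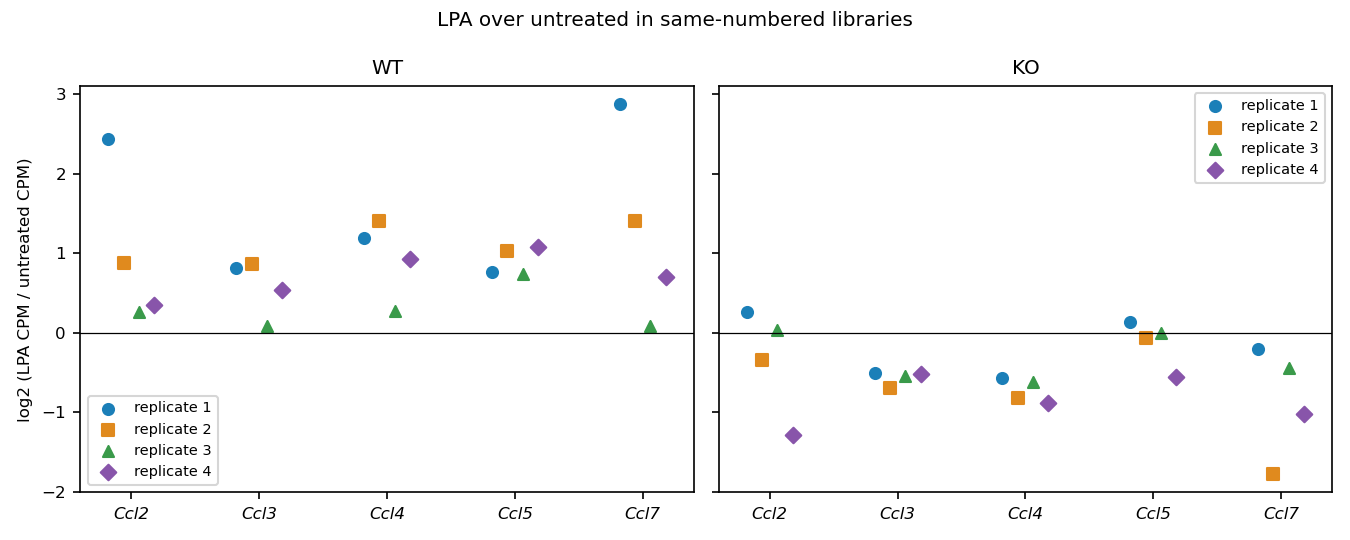
Log2 ratio of CPM with LPA over untreated CPM in same-numbered libraries of WT (left) and KO (right) macrophages, with 1 symbol per replicate number. All 20 WT points lie above 0, the lowest in replicate 3, and Ccl3, Ccl4 and Ccl7 lie below 0 in all 4 KO pairs.

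In KO macrophages none of the 5 transcripts was called with LPA, and all 5 estimates lay below 0. Ccl4 was at 20.8, 21.1, 17.6 and 30.9 CPM in KO Cont and at 14.0, 11.9, 11.4 and 16.7 CPM in KO LPA. All 4 treated libraries lay below the untreated ones, and the log2 change was -0.75 ± 0.23, which missed the threshold (edgeR adjusted p = 0.091). Ccl3 was at 34.9, 46.2, 37.3 and 49.3 CPM without treatment and at 24.6, 28.6, 25.5 and 34.3 CPM with LPA. Its treated libraries, too, all lay below the untreated ones, with a log2 change of -0.57 ± 0.16 (edgeR adjusted p = 0.058). Over all genes 4.18% had all KO LPA libraries below all KO Cont libraries, which held for 2 of the 5 chemokines. DESeq2 called both as lower (adjusted p = 0.0093 for Ccl3 and 0.01 for Ccl4), and edgeR called Ccl3 without KO Cont replicate 1 (adjusted p = 0.036) or KO LPA replicate 4 (0.041). Over all alternatives the adjusted p of edgeR or DESeq2 ranged from 0.0093 to 0.21 for Ccl3 and from 0.01 to 0.35 for Ccl4. Paired by number, the log2 ratio of LPA over untreated was -0.50 to -0.69 for Ccl3, -0.58 to -0.89 for Ccl4 and -0.21 to -1.78 for Ccl7, below 0 in 4 of 4 pairs each.

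Ccl5 stayed within its untreated range in KO cells, at 40.5, 46.0, 43.6 and 68.3 CPM without treatment and 44.4, 43.9, 43.6 and 46.2 CPM with LPA. Its log2 change was -0.16 ± 0.16 (edgeR adjusted p = 0.8), with a 95% interval of -0.49 to 0.18. Ccl2 (1.78, 1.59, 1.70 and 5.45 CPM against 2.13, 1.24, 1.75 and 2.24 CPM) and Ccl7 (0.802, 0.581, 0.663 and 1.35 CPM against 0.693, 0.170, 0.487 and 0.666 CPM) overlapped between the groups. Their log2 changes were -0.54 ± 0.57 and -0.75 ± 0.73 (edgeR adjusted p = 0.8 and 0.77), and Ccl7 in KO LPA rested on 14, 3, 10 and 14 counts. The call of 0 of 5 stands beside 2.62% of all genes called in this comparison, or 304 genes, which became 554 with the replicate number as a block. Before adjustment Ccl3 and Ccl4 were the 2 of the 5 with an edgeR p below 0.05, beside 1472 of 11590 genes. Leaving out KO Cont replicate 4 turned the log2 change of Ccl2 to 0.13 and that of Ccl5 to 0.04.

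In KO LPA all 5 transcripts lay below WT LPA in every library, and all 5 were called as lower, where 25.9% of all genes were called as lower and 50.3% in either direction. Wholly separate and lower libraries were found for 18.7% of all genes. Ccl7 differed most, by -2.10 ± 0.58 (edgeR adjusted p = 0.005), and Ccl4 next, by -1.78 ± 0.22 (adjusted p = 2.1e-06), which is 3.44-fold. Ccl2 was lower by -1.61 ± 0.49 (edgeR adjusted p = 0.0097), Ccl5 by -1.35 ± 0.16 (1.1e-06) and Ccl3 by -1.20 ± 0.16 (3.4e-06). The difference of Ccl2 was no longer called without WT LPA replicate 1 (-1.12, edgeR adjusted p = 0.058, against 0.0008 to 0.058 over its alternatives).

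The difference of the LPA effect between the genotypes, KO minus WT, was tested directly. It was -1.76 ± 0.30 for Ccl4 (edgeR adjusted p = 0.00045), -1.17 ± 0.22 for Ccl3 (0.00079) and -1.07 ± 0.22 for Ccl5 (0.0018), all called. For Ccl7 it was -2.28 ± 0.85, which fell just short of the threshold (edgeR adjusted p = 0.0503), and for Ccl2 -1.71 ± 0.69 (adjusted p = 0.07). The estimate of Ccl7, which was not called, was larger than that of each called gene, with a wider standard error. The 3 calls as lower stand beside 15.8% of all genes called as lower and 28.5% in either direction. Ccl7 was called by edgeR with library totals (adjusted p = 0.043), with a stricter filter on low counts (0.047) and in a fit of the compared groups alone (0.033), and both Ccl2 and Ccl7 were called with DESeq2 (adjusted p = 0.025 and 0.0038) and without WT LPA replicate 3 (0.028 and 0.021) or replicate 4 (0.046 and 0.028). The alternatives spanned adjusted p values of 0.025 to 0.3 for Ccl2 and 0.0038 to 0.14 for Ccl7 (edgeR or DESeq2).

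**Figure D3:**
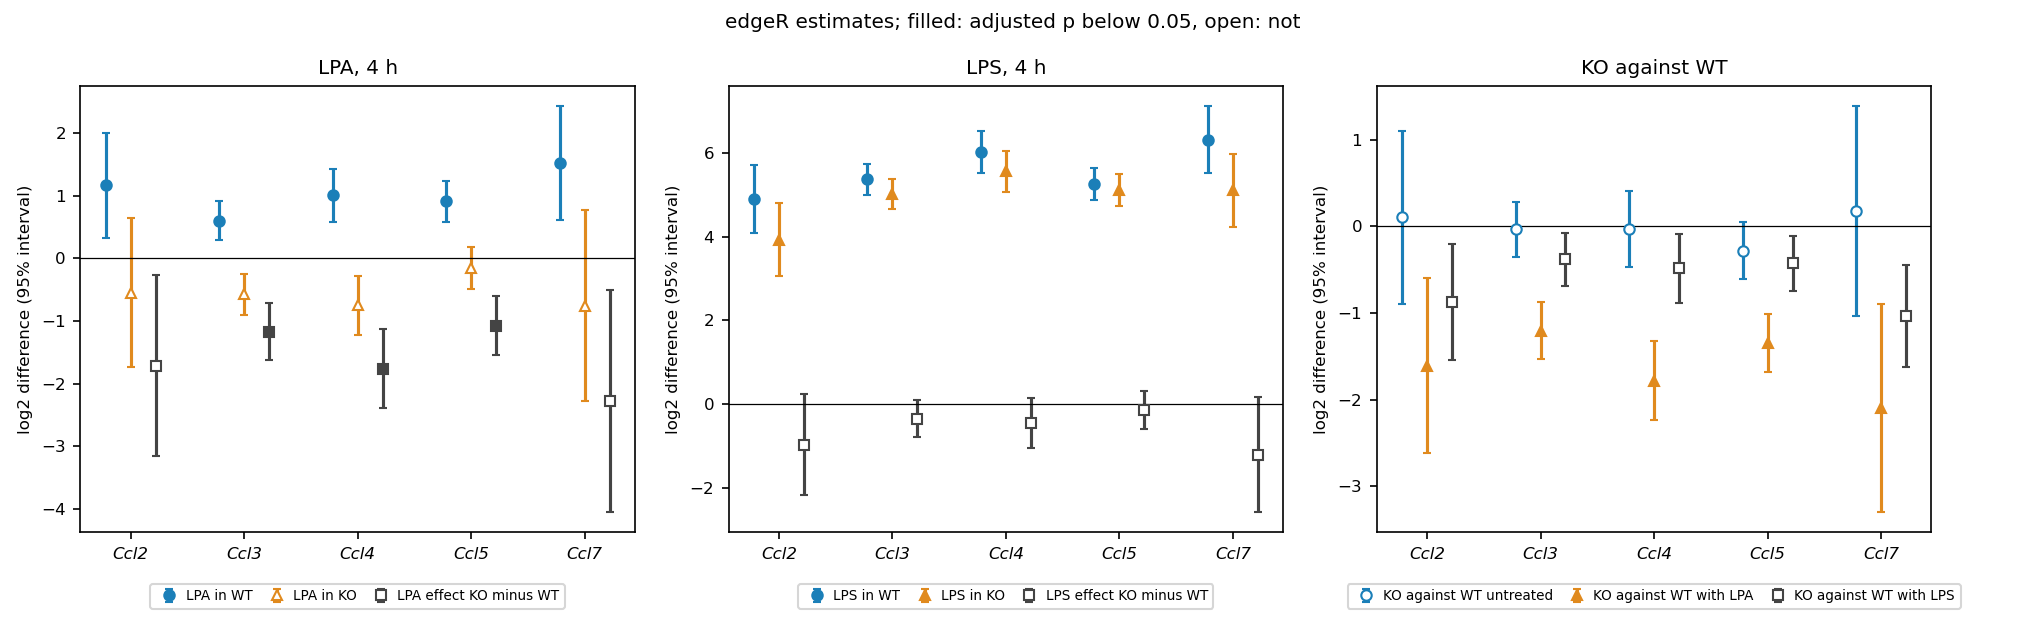
Estimated log2 differences of the 5 transcripts with 95% intervals from edgeR, filled where the adjusted p was below 0.05 and open where it was not. For LPA the WT estimates lie above 0 and the KO estimates below, for LPS both lie between 3.93 and 6.33, and KO lies below WT with LPA for all 5 genes.

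LPS raised the 5 transcripts far more, in both genotypes. Ccl5 reached 2422, 2279, 2466 and 2151 CPM in WT LPS and 1791, 2159, 1609 and 1385 CPM in KO LPS. With a log2 change of 5.27 ± 0.18 in WT and 5.13 ± 0.18 in KO (edgeR adjusted p = 7.5e-17 and 1.9e-16), it became the 6th most abundant transcript per length in WT and the 9th in KO. Ccl4 rose to 1485, 1535, 1796 and 1192 CPM in WT and 1295, 1058, 1019.7 and 917 CPM in KO, by 6.02 ± 0.24 and 5.56 ± 0.24 (edgeR adjusted p = 1.7e-15 and 7.1e-15). Ccl3 rose to 1871, 1790.1, 2075 and 1387 CPM in WT and 1547, 1393, 1463 and 1069 CPM in KO, by 5.37 ± 0.18 and 5.03 ± 0.18 (edgeR adjusted p = 3.5e-17 and 1.3e-16). WT LPS replicate 4 and KO LPS replicate 4 were the lowest of their groups for Ccl3, Ccl4 and Ccl5.

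The CCR2 ligands reached rank 975 (Ccl2) and 1177 (Ccl7) of 11590 per length in WT, and 1656 and 2191 in KO. Ccl2 stood at 58.5, 76.2, 108.9 and 59.5 CPM in WT LPS and at 52.3, 32.4, 36.5 and 44.7 CPM in KO LPS, rises of 4.90 ± 0.39 and 3.93 ± 0.42 (edgeR adjusted p = 2.2e-10 and 2.5e-08). Ccl7 stood at 47.8, 58.2, 93.0 and 49.3 CPM and at 40.2, 24.2, 25.9 and 30.7 CPM, rises of 6.33 ± 0.38 and 5.11 ± 0.42 (edgeR adjusted p = 1.9e-12 and 3.7e-10). All LPS libraries lay above all untreated ones for all 5 genes in both genotypes, as they did for 39.1% of all genes in WT and 36.0% in KO. Calls of 5 of 5 as higher stand beside 40.6% of all genes called as higher in WT and 39.3% in KO, with 84.2% and 82.3% called in either direction. The members ranked between 21 and 113 from the top of 11590 log2 changes.

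The LPA level was a small part of the LPS level, and both treatments share the same untreated libraries. In WT the mean LPA level was 3.10% of the mean LPS level for Ccl4, 3.51% for Ccl7, 3.65% for Ccl3, 4.87% for Ccl5 and 7.40% for Ccl2. These shares include the untreated level, which in the same order was 1.54%, 1.23%, 2.41%, 2.59% and 3.30% of the LPS level. The direct comparison of LPS with LPA gave log2 differences of 3.74 ± 0.36 for Ccl2 to 5.01 ± 0.23 for Ccl4 in WT, and of 4.48 ± 0.45 for Ccl2 to 6.31 ± 0.25 for Ccl4 in KO. All 5 were called as higher with LPS in each genotype (largest edgeR adjusted p = 9.7e-09), as were 37.8% of all genes in WT and 39.6% in KO, with 78.9% and 82.5% called in either direction.

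Under LPS the KO means were lower than the WT means for all 5 transcripts, but none was called with edgeR or DESeq2. The log2 differences were -1.04 ± 0.28 for Ccl7 (edgeR adjusted p = 0.051), -0.87 ± 0.32 for Ccl2 (0.15), -0.49 ± 0.19 for Ccl4 (0.18), -0.42 ± 0.15 for Ccl5 (0.13) and -0.38 ± 0.15 for Ccl3 (0.16). The libraries of Ccl2 and Ccl7 did not overlap between the genotypes, whereas those of Ccl3, Ccl4 and Ccl5 did. Over all genes 2.85% were called, 2.16% as lower, and 6.46% had KO libraries wholly below WT libraries. All 5 had an unadjusted edgeR p between 0.0015 and 0.02, and 1994 of 11590 genes had one below 0.05. Ccl7 was called with a stricter filter on low counts (adjusted p = 0.048), with counts thinned to the smallest library (0.046) and without WT LPS replicate 1 (0.034), over a range of 0.034 to 0.25 in its alternatives. The effect of LPS itself differed between the genotypes for none of the 5, with estimates of -0.14 ± 0.22 for Ccl5 to -1.21 ± 0.66 for Ccl7 (KO minus WT). None of the 5 had an unadjusted p below 0.05 there or was called with DESeq2. Of all genes 0% were called with edgeR, 698 passed before adjustment, and DESeq2 called 17. The intervals for Ccl2 (-2.18 to 0.24) and Ccl7 (-2.58 to 0.16) leave room for a sizeable difference, and those for Ccl3 (-0.78 to 0.09) and Ccl5 (-0.60 to 0.31) for less than 1 log2 unit.

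Together the 5 transcripts made up 0.0146% ± 0.000592 of the counts of a WT Cont library, 0.0251% ± 0.00481 with LPA and 0.439% ± 0.0466 with LPS (SD, n = 4). In KO the shares were 0.0134% ± 0.00288, 0.0103% ± 0.000920 and 0.344% ± 0.0387. The WT LPA libraries (0.0181% to 0.0290%) lay above all 4 KO LPA libraries (0.00976% to 0.0117%). These shares are of library totals, without TMM scaling.

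The balance within each pair of neighbours shifted with LPS in both genotypes. Per length there were 1.56 ± 0.161 Ccl3 counts for each Ccl4 count in WT Cont and 0.991 ± 0.0412 in WT LPS, and 1.58 ± 0.251 and 1.07 ± 0.103 in KO (SD, n = 4). The WT LPA ratio of 1.22 ± 0.199 lay between, and the KO LPA ratio was 1.77 ± 0.228. Ccl2 over Ccl7 went from 3.27 ± 0.559 in WT Cont to 2.67 ± 0.285 with LPA and 1.22 ± 0.0578 with LPS, and in KO from 2.86 ± 0.784 to 4.30 ± 1.99 and 1.36 ± 0.0697. For both ratios all LPS libraries lay below all untreated ones of their genotype. With LPA this held only for Ccl3 over Ccl4 in WT (0.997 to 1.41 against 1.43 to 1.78). The ranges of Ccl2 over Ccl7 in WT, and of both ratios in KO, overlapped between LPA and untreated libraries. These ratios were not tested, and the Ccl2 to Ccl7 ratio of 7.27 in KO LPA replicate 2 rests on 3 counts of Ccl7.

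**Figure D4:**
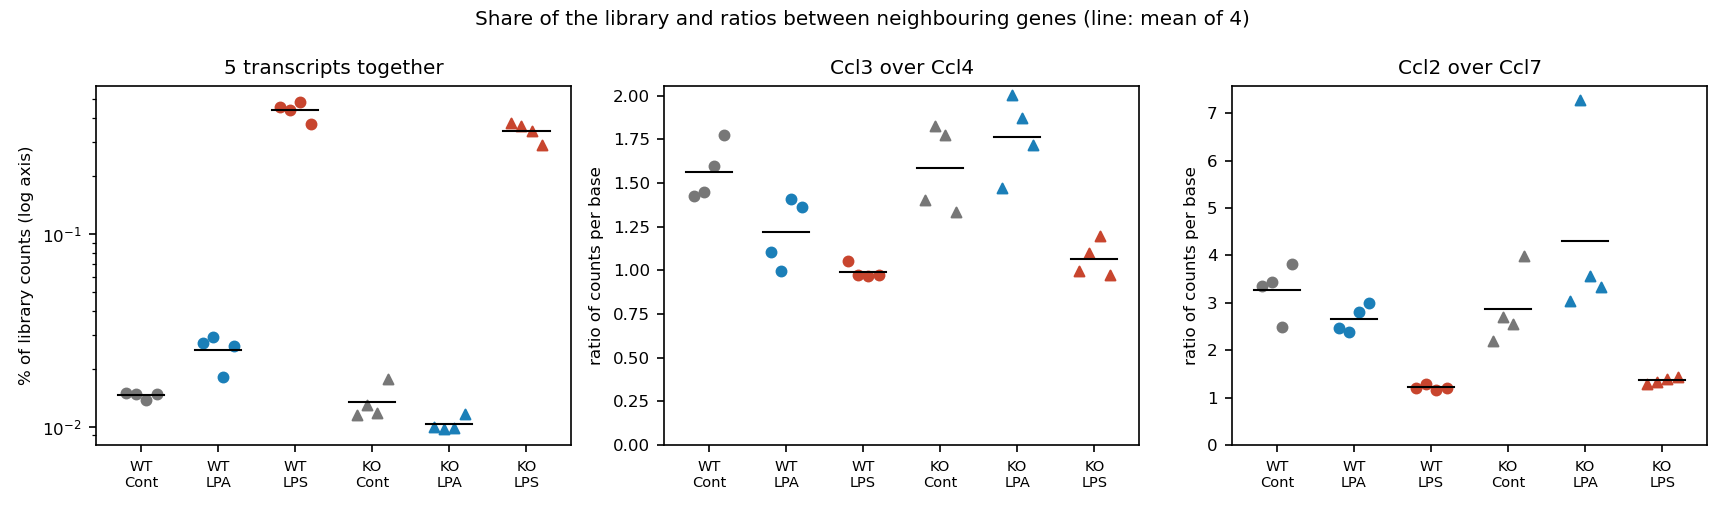
Percent of library counts that fell on the 5 transcripts together (left, log axis) and the per-length count ratios of Ccl3 to Ccl4 (middle) and of Ccl2 to Ccl7 (right), by library and group, with a line at the mean of 4. The ratios are lowest with LPS in both genotypes, with means of 0.991 and 1.07 for Ccl3 over Ccl4 and 1.22 and 1.36 for Ccl2 over Ccl7.

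Ccl3 and Ccl5 had the most similar profiles among the 5. Likeness was measured as the root mean square difference between log2 CPM values centred on each gene's mean over the 24 libraries, and was 0.27 log2 units for Ccl3 and Ccl5. It was 0.34 for Ccl3 and Ccl4, 0.42 for Ccl4 and Ccl7, and 0.76 for Ccl2 and Ccl4, the least alike pair. Among all genes, the 3 most like Ccl5 were Bcl2a1d (0.23), a gene of the BCL2 family, Il27 (0.23), which encodes a cytokine subunit, and Ccl3. Ccl3 had Ccl5, Bcl2a1d (0.32) and Il27 (0.34), and Ccl4 had Ccl3, Cd69 (0.37) and Tmem200b (0.42). Ccl7 had Ccl4, Ccl3 (0.58) and the formyl peptide receptor gene Fpr1 (0.59). Ccl2 had none of the other 4 among its 3 closest genes. Those were Ch25h (0.41), the cholesterol 25-hydroxylase gene, Hdc (0.42), the histidine decarboxylase gene, and Slfn4 (0.44). These neighbours depend on the setting, with 12 of the 15 named kept at a prior count of 0.5 and 7 of 15 over the WT libraries alone, where Ccl7 had Ccl4, Nos2 and Ccl12. The median over all genes was 2.19 to 2.79, and a profile that LPS moves by 5 log2 units is set mostly by the LPS libraries.

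Of 16 other CC chemokine genes listed, 8 were measured. In WT cells LPA raised 2 of these 8, Ccl9 (0.62 ± 0.20, edgeR adjusted p = 0.015) and Ccl12 (0.79 ± 0.32, adjusted p = 0.047), and lowered none, with a list median of 0.12, where 23.5% of all genes were called as higher. Ccl12, which encodes another CCR2 ligand of the mouse and lies in the cluster of Ccl2 and Ccl7, went from 1.90 ± 0.233 to 3.28 ± 1.41 CPM (SD, n = 4). The count of 2 fell to 1 with DESeq2 and to 0 without WT LPA replicate 1 or WT Cont replicate 3. In KO cells LPA lowered 1 of 8, Ccl8 (-1.85 ± 0.45, edgeR adjusted p = 0.023), from 0.675 to 0.191 CPM, beside 2.62% of all genes called in either direction, a call lost without KO Cont replicate 4, KO LPA replicate 3 or KO LPA replicate 4 and in a fit of the compared groups alone. The LPA effect was lower in KO than in WT for Ccl12 (-2.11 ± 0.67, edgeR adjusted p = 0.025) and Ccl8 (-1.93 ± 0.54, adjusted p = 0.011), a count of 2 of 8 beside 15.8% of all genes called as lower, and one that lay between 1 and 4 when 1 library was left out. In KO LPA libraries Ccl12 rested on only 2 to 22 counts and Ccl8 on 3 to 5. Ccl6, abundant at 121 to 157 CPM in the group means, passed the test in no LPA or LPS comparison within a genotype.

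LPS raised the same 5 of the 8 in each genotype, Ccl8, Ccl9, Ccl12, Ccl22 and Ccl24, and lowered Ccl25 and Ccl27a, where 84.2% of all genes were called in WT (40.6% as higher) and 82.3% in KO (39.3% as higher). Ccl12 rose most, by 5.26 ± 0.29 in WT and 5.11 ± 0.33 in KO (edgeR adjusted p = 3.8e-13 and 7.2e-12), within the range of the 5 genes followed here. Ccl9, already at 861 CPM in WT Cont, rose by 1.77 ± 0.20 (edgeR adjusted p = 4.1e-08). Ccl27a fell by 1.32 on the log2 scale in WT and fell by 1.49 in KO (edgeR adjusted p = 5.6e-05 and 0.00011).

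**Figure D5:**
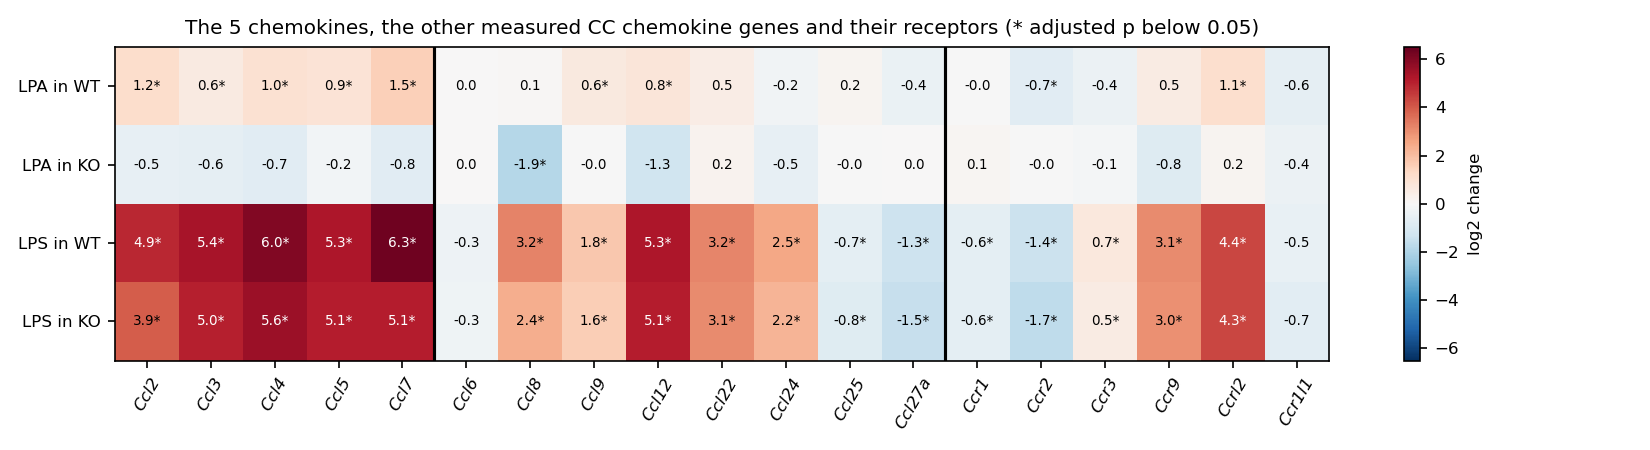
Log2 change with LPA or LPS against untreated cells in each genotype for the 5 chemokines (left block), the 8 other measured CC chemokine genes (middle) and 6 receptor genes (right), with a star where the edgeR adjusted p was below 0.05. The top row holds 5 starred rises on the left, 2 in the middle and 1 on the right beside a starred fall of Ccr2, and the KO LPA row holds 1 star, at Ccl8.

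On the receptor side, 6 genes are described. Ccrl2, an atypical receptor that binds chemerin without signalling, rose with LPA in WT from 16.9 ± 1.30 to 36.6 ± 6.15 CPM (SD, n = 4), and its log2 change was 1.12 ± 0.12 (edgeR adjusted p = 4.2e-07). Ccr2, the receptor of the Ccl2 and Ccl7 proteins, fell from 17.4 ± 2.24 to 10.4 ± 2.25 CPM (-0.75 ± 0.24, edgeR adjusted p = 0.015). Ccr1, which serves the Ccl3 and Ccl5 ligands, had a change of -0.05 ± 0.17 that did not pass (edgeR adjusted p = 0.85). These 2 calls of 6, beside 44.6% of all genes, became 1 without WT LPA replicate 2. In KO none of the 6 was called with LPA, where 2.62% of all genes were, and Ccr2 was at 21.6 ± 5.90 and 21.4 ± 8.60 CPM. The effect of LPA was lower in KO than in WT for Ccrl2 (-0.92 ± 0.17, edgeR adjusted p = 0.00079) and Ccr9 (-1.36 ± 0.42, adjusted p = 0.032), while that of Ccr2 differed by 0.73 ± 0.34 (adjusted p = 0.11). That count of 2 of 6, beside 15.8% of all genes called as lower, fell to 1 with thinned counts and without KO Cont replicate 2, KO Cont replicate 3, KO LPA replicate 3 or WT LPA replicate 1. Ccr9 rested on only 3 to 5 counts per KO LPA library. With LPS, Ccrl2 rose by 4.35 ± 0.13 and Ccr2 fell by 1.41 on the log2 scale in WT (edgeR adjusted p = 6e-18 and 2.5e-05), and 3 of the 6 rose and 2 fell, beside 84.2% of all genes called.

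Genes known to act upstream of these chemokines included several that changed with LPA in WT cells. Over all genes, 44.6% were called with LPA in WT (23.5% as higher), 2.62% with LPA in KO and 28.5% for the LPA effect between genotypes (15.8% as lower). Of 17 transcription factor genes known at chemokine promoters, LPA in WT raised 11 and lowered 2, with a median of 0.37, among them Nfkb1 (0.56 ± 0.07, edgeR adjusted p = 1.5e-06), Nfkb2 (0.47 ± 0.09, 0.0004) and Fos (0.75 ± 0.10, 1.2e-05), with Stat3 lower (-0.29 ± 0.06, 0.0003). In KO only Fos of these 17 was called (0.71 ± 0.11, edgeR adjusted p = 0.00034), and its LPA effect differed between genotypes by -0.04 ± 0.15 (adjusted p = 0.88). The LPA effect was lower in KO for 7 of the 17 and higher for 2, with Nfkb1 at -0.58 ± 0.09 (edgeR adjusted p = 0.00018). Of 13 genes of the LPS receptor complex and its adaptors, LPA in WT raised 5 and lowered 2, beside the 44.6% of all genes, including the co-receptor gene Cd14 (1.24 ± 0.13, edgeR adjusted p = 7e-07) and the inhibitor genes Irak3 (0.97 ± 0.08, 3.1e-08) and Tnfaip3 (0.74 ± 0.11, 1.9e-05). In KO none was called, or 1 with the replicate number as a block.

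Chemokines are held at cell surfaces by heparan sulfate. A list of 8 measured genes covered its core proteins, enzymes that make it and enzymes that cut chemokines or their anchors. LPA in WT raised 5 of the 8 and lowered 1, beside 44.6% of all genes called. They included Mmp14 (1.36 ± 0.12, edgeR adjusted p = 7.8e-08), which encodes a membrane-bound protease, and Sdc4 (0.95 ± 0.10, 6.6e-07), which encodes syndecan-4. In KO none of the 8 was called with LPA, where 2.62% of all genes were, or 1 with the replicate number as a block. LPS in WT raised 6 and lowered 1, beside 84.2% of all genes called, with Sdc4 at 3.17 ± 0.11 (edgeR adjusted p = 3.8e-17) and Ndst1, which encodes a heparan sulfate sulfotransferase, at -2.56 ± 0.13 (1.7e-14).

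The stability of chemokine mRNA is known to be set in part by AU-rich elements in the 3′ UTR, and the 5 transcripts differ in these. The pentamer ATTTA occurred 5 times in the 3′ UTR of Ccl3, 2 times in those of Ccl4 and Ccl7, once in that of Ccl2 and not in that of Ccl5, on the sense strand of the GENCODE transcripts. Of 1879 UTRs of like length, 1.06% held as many as Ccl3. A 30-base stretch of the Ccl3 UTR holds a pair of the pentamers, in capitals.
Ccl3: gactcttcacttgaaattttATTTAATTTA
The longer form TTATTTATT occurred in none of the 5, and in only 1.47% to 2.86% of UTRs of like length. Ccl5, without a pentamer, and Ccl3, with the most, had the closest profiles among the 5. Whether the pentamers bear on these levels was not tested. A list of 9 measured genes for factors that act on AU-rich transcripts also held Tnip1, which does not encode such a factor. Of the 9, LPA in WT raised 4, Tnip1 included, and lowered 2 (44.6% of all genes were called). Among them were Zc3h12a (0.60 ± 0.08, edgeR adjusted p = 5.8e-06), which encodes the ribonuclease regnase-1, and Zfp36l1, which fell by 0.56 on the log2 scale (adjusted p = 0.00032). In KO none of the 9 was called with LPA, where 2.62% of all genes were. LPS raised 6 of the 9, Tnip1 included, and lowered 3 in both genotypes, where 84.2% and 82.3% of all genes were called.

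Among the 5 genes, the RefSeq promoter table held Ccl3. Its 250 bases before the start (chr11:83649379-83649628, GRCm38.p6, minus strand) were searched on both strands for motifs of factors known at chemokine genes, with the match in capitals.
Ccl3: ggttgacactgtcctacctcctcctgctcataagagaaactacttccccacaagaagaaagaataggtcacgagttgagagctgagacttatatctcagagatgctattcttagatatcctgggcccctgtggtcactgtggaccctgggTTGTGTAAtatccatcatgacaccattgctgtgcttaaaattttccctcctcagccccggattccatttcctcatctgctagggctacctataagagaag
The 1 match, 100 bases before the RefSeq start, was of the C/EBP form TTNNGNAA, which 36.8% of 32851 promoter windows of that length hold. The letters of an NF-kB site (3.90% of windows), of AP-1 (TGANTCA, 6.75%), of CRE (TGACGTCA, 1.55%), of ISRE (2.98%), of GAS (TTCNNNGAA, 7.02%) and of a TATA box (TATAAA, 12.4%) were not in this window. The GENCODE transcript of Ccl3 starts further downstream, at 83649355, and the bases between the 2 starts were not searched.

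Markers of other cells moved with LPA in some cases, and their part in the chemokine results was not tested. The 8 of 9 neutrophil markers measured summed to 263 to 477 CPM in WT Cont and 220 to 266 CPM in WT LPA, and to 265 to 536 and 203 to 414 CPM in KO. Pf4 and Ppbp, the 2 of 7 megakaryocyte and erythroid markers measured, summed to 74.7 to 93.7 CPM in WT Cont and 117.7 to 188 CPM in WT LPA, with 83.1 to 101.5 and 90.8 to 109.2 CPM in KO. The 4 of 6 stromal and endothelial markers measured summed to 6.59 to 12.1 CPM in WT Cont and 5.65 to 13.6 CPM in WT LPA, but to 4.33 to 11.2 CPM in KO Cont and 11.6 to 26.3 CPM in KO LPA. Of these, LPA in WT raised the endothelial gene Cdh5 (1.63 ± 0.37, edgeR adjusted p = 0.0014). Pecam1 (-0.25), Col1a1 (0.10) and Col1a2 (0.03) were not called there. LPA in KO raised Pecam1 (1.29 ± 0.31, edgeR adjusted p = 0.027). There Cdh5 (0.03), Col1a1 (1.99) and Col1a2 (2.12) were not called. Hdc was the 1 of 6 mast cell and basophil markers measured, at 1.40 to 2.49 CPM in WT Cont, 2.62 to 4.15 CPM in WT LPA and 44.0 to 49.5 CPM in WT LPS, with 1.47 to 2.67 CPM in KO Cont, 0.905 to 1.57 CPM in KO LPA and 29.96 to 37.0 CPM in KO LPS. It rose with LPA in WT (0.77 ± 0.16, edgeR adjusted p = 0.00071), and its LPA effect differed between the genotypes by -1.24 ± 0.28 (KO minus WT, adjusted p = 0.0029). Cd79b was the 1 of 4 B cell markers, at 5.96 to 7.65 CPM in WT Cont and 3.46 to 5.65 CPM in WT LPA.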

How the data were processed

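PolyA RNA of 24 macrophage cultures was sequenced from stranded libraries as paired reads of 51 bases, per the labels' protocols. Reads were aligned with STAR 2.5.2a to mm10, per the submitters' processing notes. Neither the counting program nor the strand it used is named in these sources. The authors' deposited table holds raw counts per gene, with an Entrez ID, a symbol and a gene length in bases. All 24 columns matched a sample by name.

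Tests used edgeR 4.0.16 (R 4.3.3): TMM scaling, a robust quasi-likelihood F test, 1 model with a mean for each of 6 groups (18 residual degrees of freedom) and Benjamini-Hochberg adjustment over 11590 genes in each of 11 comparisons. The usual edgeR filter removed no gene, and 9 genes had no symbol. The pipeline was tested on simulated data. Chi-square over degrees of freedom was 4.09 to 77.3 for the 36 replicate pairs, so none was a copy.

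The 5 genes and the gene lists were chosen with earlier results of these data known. Named by rule were the 5 genes, Gpr35, up to 4 genes of each list with the smallest adjusted p in a comparison, and the 3 genes most like each chemokine; Ccr1, Ccl6 and further list members were chosen after their values were seen. Of the receptor list, 1 gene is not reported here and was left out of its counts. Same-numbered libraries were taken as paired where every correlation of their deviations from the group means was over 0.1. That held for LPA against untreated in WT and for all treatments in KO, and in 22 of 24 pairs within a genotype (0.07 to 0.77), but in 2 of 36 between genotypes. Sequences came from GENCODE M21 transcripts and, for the promoter, from RefSeq (GRCm38.p6). Alternatives were DESeq2 1.42.0, median-ratio factors, library totals, other filters (50 counts in 4 libraries), thinned counts, only the compared groups, a replicate block and leaving out each library.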

Additional observations from a re-analysis of the deposited data

Results flagged for a closer look

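Among 30 groups of 4 libraries (5 genes in 6 groups), 1 held a library far from the rest: Ccl2 in KO Cont replicate 4, at 5.45 CPM, where the gap to the next library was 0.949 of the group's range. The cutoff for calling a library far from the rest is one that chance passes in about 1 group of 20, and this gap lay above it. A count of 1 among 30 groups is no more than that rate gives. The LPA effect differed between KO and WT by an edgeR test of the difference itself for Ccl3 (log2 -1.17), Ccl4 (-1.76) and Ccl5 (-1.07) among the 5 chemokines, for Ccl12 (-2.11) and Ccl8 (-1.93) among the other CC chemokine genes, and for Ccr9 (-1.36) and Ccrl2 (-0.92) among the receptors. Few counts lay behind some of these in KO LPA libraries, with 2 to 22 for Ccl12, 3 to 5 for Ccl8 and 3 to 5 for Ccr9.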

How the results depend on the processing

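The LPS comparisons with untreated or LPA-treated cells called 5 of 5 chemokines under every alternative run, and the comparison of untreated genotypes called none. Leaving out 1 library moved the number called to 3 to 5 for LPA in WT, 0 to 1 for LPA in KO, 4 to 5 for KO against WT with LPA, 0 to 1 for KO against WT with LPS, and 3 to 5 for the LPA effect between genotypes. Other settings gave 2 (DESeq2) or 1 (library totals) for LPA in KO, 1 (stricter filter) or 1 (thinned counts) for KO against WT with LPS, and 5 (DESeq2) or 4 (library totals, stricter filter and only the compared groups, each) for the LPA effect. The replicate block changed no call of a chemokine, and moved the estimate of Ccl2 between untreated genotypes from 0.10 to -0.056 (not called).

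Over all genes, KO against WT with LPS called 330 genes, 581 with DESeq2, 131 with only the compared groups, 0 with the replicate block, and 65 to 577 when 1 library was left out. Those between-genotype numbers share only a number. LPA in KO called 304 genes, 461 with DESeq2, 554 with the replicate block and 168 to 310 when 1 library was left out. The LPS effect between genotypes called 0, 17 with DESeq2 and 0 to 1 when 1 library was left out.

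Signs that turned when 1 library was left out were all of changes that were not called. Between untreated genotypes the log2 differences ran from -0.57 to 0.31 for Ccl2, -0.12 to 0.044 for Ccl3, -0.22 to 0.076 for Ccl4 and -0.16 to 0.35 for Ccl7. With LPA in KO they ran from -0.71 to 0.13 for Ccl2 and -0.24 to 0.039 for Ccl5, and for the LPS effect between genotypes from -0.27 to 0.052 for Ccl5. The cause was not tested.

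Scaling by library totals in place of TMM moved the median of all genes with LPS in WT from -0.04 to -0.59, and the share of called genes that were higher from 48.3% to 23.3%. For LPA in WT that share went from 52.7% to 40.3%, for KO against WT with LPA from 48.4% to 67.4%, for KO against WT with LPS from 24.2% to 78.2%, and for the LPA effect between genotypes from 44.6% to 59.9%. The direction of each called chemokine change was kept. Depth limits Ccl7 most, with 3 to 52 counts in untreated and KO LPA libraries.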
